A study of Mus musculus with 3 samples.

Results

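Cxcl1, Cxcl2, Cxcl3 and Cxcl5 encode chemokines that draw neutrophils, and Cxcr2 encodes their receptor. Their RNA was followed cell by cell in mouse skin wounds, to see which cell class held the transcripts of each ligand and of the receptor, and in which wounds. The members are these 5 genes by symbol, out of 19070 measured genes; all 5 were measured and all 5 were detected. Their identifiers are ENSMUSG00000029380 (Cxcl1), ENSMUSG00000058427 (Cxcl2), ENSMUSG00000029379 (Cxcl3), ENSMUSG00000029371 (Cxcl5) and ENSMUSG00000026180 (Cxcr2). Every group was skin of female C57BL/6J mice, wounded on postnatal day 50 with a splinted 5 mm full-thickness wound on the back and collected 5 days later with a 2 mm margin, so healthy skin around the wound is part of each sample. The untreated group (its title is Sham) had the wound and no gel named in its label. The GelMA group had 20 µL of gelatin methacryloyl, a hydrogel set with UV light for 1 minute. The AN-GelMA group had the same gel loaded with apoptotic neutrophils. The files of that group carry the word heat, which the labels do not explain. Its wound neutrophils and any cells left from the gel cannot be told apart.

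In mice these 4 ligands share a short motif before their first cysteine pair, are secreted in response to tissue damage, and bind CXCR2, a G protein-coupled receptor on neutrophils that steers them out of vessels toward the source. Interleukin-1, tumour necrosis factor, interleukin-17 and microbial products induce the ligand genes through NF-kB, while proteins such as ZFP36 and regnase-1 (Zc3h12a) shorten the life of their messages. In wounded skin, fibroblasts, keratinocytes, macrophages and neutrophils themselves are all known sources.

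The promoters are shown because 3 of the ligand genes share letters there that the receptor gene lacks. RefSeq promoter windows (GRCm38.p6, 250 bases before to 50 bases after the start) were matched for 4 of the 5 members, Cxcl1, Cxcl2, Cxcl3 and Cxcr2. Each sequence below is the last 120 bases before the start, 5′ to 3′, with every match to an NF-kB type motif (GGG, then any 3 bases, then TTCC, on either strand) in capitals.
Cxcl1 chr5:90891125-90891244 (+ strand): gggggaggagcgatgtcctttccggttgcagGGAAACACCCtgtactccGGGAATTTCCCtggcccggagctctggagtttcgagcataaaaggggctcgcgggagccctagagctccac
Cxcl2 chr5:90903779-90903898 (+ strand): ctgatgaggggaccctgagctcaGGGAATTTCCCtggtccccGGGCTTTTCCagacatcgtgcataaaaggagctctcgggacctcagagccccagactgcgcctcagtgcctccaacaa
Cxcl3 chr5:90785981-90786100 (+ strand): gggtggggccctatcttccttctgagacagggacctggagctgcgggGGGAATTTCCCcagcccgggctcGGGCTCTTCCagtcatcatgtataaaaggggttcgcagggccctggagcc
Cxcr2 chr1:74153874-74153993 (+ strand): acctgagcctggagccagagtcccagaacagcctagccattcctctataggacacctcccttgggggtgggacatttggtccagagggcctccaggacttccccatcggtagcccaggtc
Cxcl1, Cxcl2 and Cxcl3 each held 3 matches, of which 2 lay over each other on opposite strands, so each promoter had 2 separate places in capitals. Cxcr2 held 0 in this stretch and 0 in the whole 300-base window. Of 32851 RefSeq windows of this length, 1825 (5.56%) held the motif anywhere, and 794 (2.42%) held it in the 120 bases before the start. The AP-1 motif, TGANTCA on either strand, was found in 0 of the 4 windows, against 2565 (7.81%) of all windows. These matches describe letters and are not measured sites of binding.

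Each group was 1 library of fixed, dissociated single cells read with probes (10x Flex), in which a unique molecular identifier (UMI) stands for 1 captured probe pair. Since the number of probes differs between genes, levels are compared within a gene, not between genes. The number of mice behind a library is not given, and animal, piece of skin and treatment cannot be told apart; with 1 library per group there is no test between groups. The 3 libraries held 8945496 (untreated), 21613482 (GelMA) and 14156692 (AN-GelMA) UMIs over 6073, 11449 and 9648 barcodes; 5721, 10687 and 9094 cells were kept, with medians of 1115, 1476 and 1116 UMIs. Cells were clustered without the 5 members and the clusters named from 17 marker lists. Neutrophils numbered 35, 93 and 97 cells in that order, macrophages 651, 387 and 1535, fibroblasts 1065, 648 and 2022, and keratinocytes 2348, 4541 and 3984. The GelMA library stood apart by 2903 cells of the hair-forming class, against 206 in the untreated and 60 in the AN-GelMA library, and 201, 242 and 229 cell barcodes also occurred in another library. Neutrophils carried their own markers in each library (0 to 2 of 12 at 0).

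Values below are in the order untreated, GelMA and AN-GelMA unless said otherwise. CPM is the gene's UMIs per 1000000 UMIs of all genes in that class and library, and intervals in brackets are exact 95% intervals (Poisson for CPM and its ratios, Clopper-Pearson for shares) that cover counting error only. They leave out the spread between cells and between animals. A ratio between libraries past 1.5 times in either direction is called higher or lower; the 3 comparisons share libraries.

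Summed over the 4 ligands, neutrophils held 859, 2103 and 1029 UMIs, macrophages 428, 127 and 1501, and fibroblasts 486, 275 and 1229. Keratinocytes, the most numerous class with 10873 of 25502 cells, held 199, 262 and 298. The order of the classes thus differed between libraries, and Cxcl2 made up most of each sum over a library, so each ligand is described on its own.

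**Figure D1:**
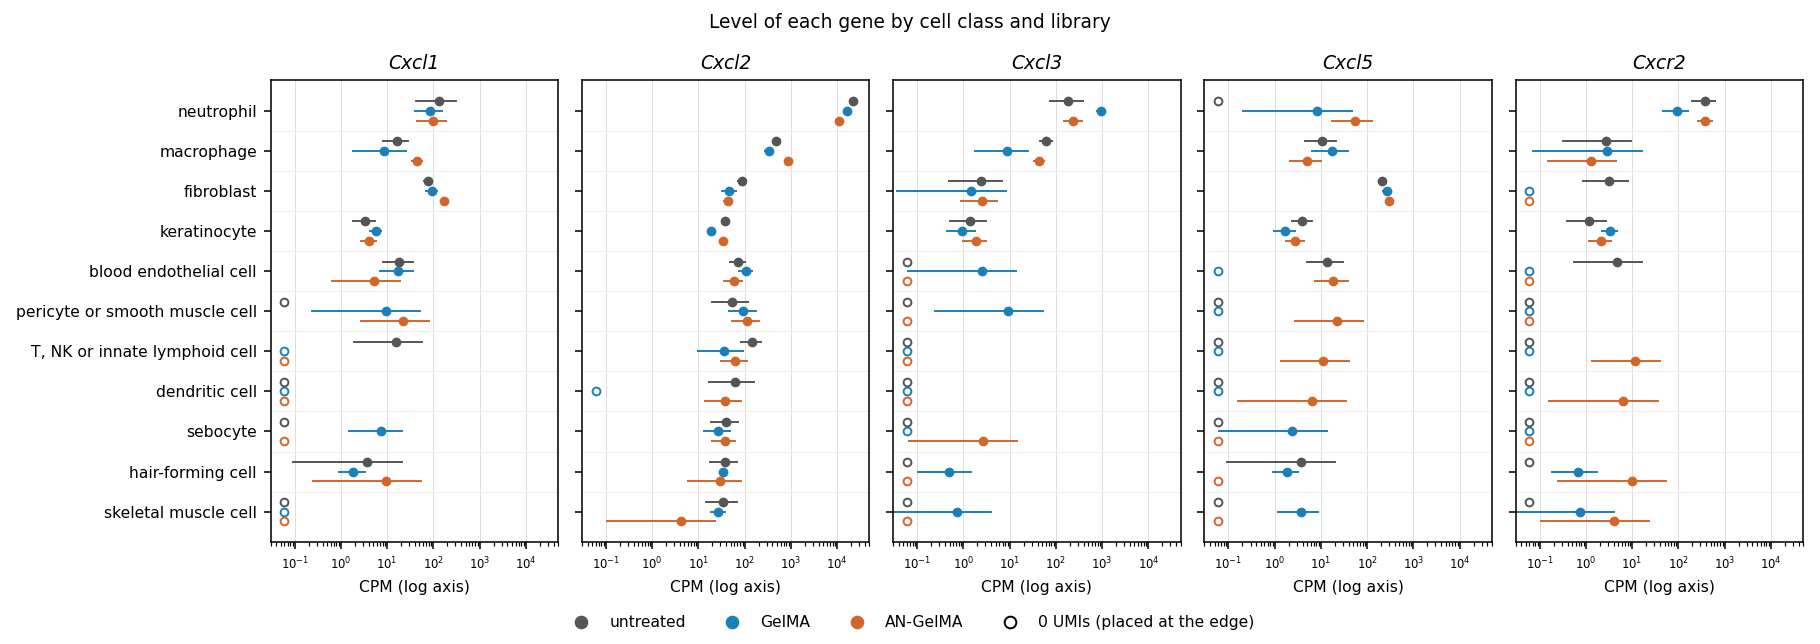
Level of each gene in CPM (log axis) by cell class, 1 point per library with its exact 95% Poisson interval. Cxcl2 in neutrophils stood at 22257, 16351 and 10771 CPM, and Cxcl5 in fibroblasts at 214, 262 and 289.5 CPM (untreated, GelMA, AN-GelMA).

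Cxcl1 encodes the chemokine known in mice as KC. Fibroblasts held 99 of 153, 63 of 156 and 413 of 532 Cxcl1 UMIs (untreated, GelMA, AN-GelMA), which is 64.7% [56.6 to 72.3], 40.4% [32.6 to 48.5] and 77.6% [73.8 to 81.1]. Fibroblasts held more Cxcl1 UMIs than any other class in every library, though under GelMA their interval overlapped that of keratinocytes (35.3% [27.8 to 43.3]). In the untreated library the share was 45.1% when each cell took the class of its own highest marker score instead of its cluster's. The fibroblast level of Cxcl1 was 77.3 CPM [62.8 to 94.1] in the untreated, 92.2 [70.9 to 118] in the GelMA and 170.1 [154 to 187] in the AN-GelMA library. The AN-GelMA interval lay above both others, while those of the untreated and GelMA libraries overlapped. As log2 ratios, AN-GelMA over untreated was 1.14 [0.82 to 1.47] and AN-GelMA over GelMA 0.88 [0.50 to 1.29], both called higher, and GelMA over untreated was 0.25 [-0.23 to 0.72]. With every cell thinned to 500 UMIs, these became 0.78, 1.31 and -0.52; the last changed sign without passing 1.5 times. Among cells of at least 1000 UMIs, GelMA over untreated was 1.35, past 1.5 times, so the value of this comparison depends on the depth of the cells used. In these fibroblasts the summed level of 14 hair-forming markers was 127, 1083 and 31.3 CPM (2, 0 and 4 of 14 at 0) and that of 17 keratinocyte markers 662, 1302 and 778 CPM, both highest under GelMA; their part in the fibroblast ratios was not tested.

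Few fibroblasts carried Cxcl1 at this depth. It was seen in 4.41%, 2.93% and 6.28% of fibroblasts, or 2.82%, 1.70% and 4.35% after thinning. Skeletal muscle cells, which served as a class that should lack these genes, had 0 Cxcl1 UMIs in 174, 811 and 166 cells, which allows shares of up to 1.72%, 0.370% and 1.81%. Median depths were 1046, 870 and 1019 UMIs for fibroblasts and 1020, 1534 and 1262 for muscle cells. The fibroblast shares lay above what the muscle cells allow.

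The fibroblasts fell into 3 clusters, and Cxcl1 was concentrated in the one led by Nos2 (inducible nitric oxide synthase) and Saa3 (an acute phase protein). That cluster held 161, 8 and 303 cells, with 58, 19 and 285 Cxcl1 UMIs, or 273, 1348 and 649 CPM. It made up 43.0% of all Cxcl1 UMIs of the series, and 53.6% of those under AN-GelMA. Cxcl5 and Cxcl1 were themselves among its 10 leading genes, although they were left out of the clustering. Under GelMA its 19 UMIs came from 4 of 8 cells with a maximum of 12 in 1 cell, so the highest level rests on very few cells.

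The cluster held 161 of 1065, 8 of 648 and 303 of 2022 fibroblasts, so the mix of clusters differed under GelMA from that of the other libraries. Within the Nos2 and Saa3 cluster, AN-GelMA over untreated was 1.25 [0.84 to 1.68] on the log2 scale. In the cluster led by Col12a1 and Tnn, genes of the extracellular matrix, Cxcl1 had 14, 26 and 65 UMIs (24.2, 88.5 and 65.3 CPM). There GelMA over untreated was 1.87 [0.88 to 2.92], AN-GelMA over untreated 1.43 [0.58 to 2.38], and AN-GelMA over GelMA -0.44 [-1.11 to 0.28]; after thinning they were 1.73, 1.33 and -0.40. In the cluster led by Pi16, a marker of connective tissue fibroblasts, Cxcl1 stood at 55.1, 48.0 and 63.4 CPM, with AN-GelMA over GelMA at 0.40 [-0.37 to 1.25]. Neither of these clusters had an interval for AN-GelMA over GelMA that lay off 0. The part of the cluster mix in the class level was not tested.

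Outside fibroblasts, Cxcl1 was found in macrophages with 12, 3 and 71 UMIs (16.0, 8.66 and 44.6 CPM). In the macrophage cluster led by Mmp12 and Spp1, a macrophage elastase and osteopontin, the counts were 12, 0 and 60. Over all macrophages, AN-GelMA over untreated was 1.48 [0.59 to 2.50] on the log2 scale, but 0.23 after thinning to 500 UMIs and 0.54 with doublets kept, both within 1.5 times. Neutrophils had 5, 10 and 9 Cxcl1 UMIs, too few to compare between libraries. Their level was 131 CPM [42.7 to 307], 82.7 [39.7 to 152] and 97.6 [44.6 to 185], with intervals that overlapped those of fibroblasts in each library. Keratinocytes held 14, 55 and 29 UMIs, and with 35.3% of the Cxcl1 UMIs of the GelMA library they were its second source. A single keratinocyte held 15 of those 55 UMIs, and 28 of them lay in 12 of 869 cells of 1 cluster, which had 1 and 11 UMIs in the untreated and AN-GelMA libraries.

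Cxcl5, the chemokine called LIX in mice, was the ligand most closely tied to fibroblasts. They held 274 of 320, 179 of 223 and 703 of 762 Cxcl5 UMIs, or 85.6% [81.3 to 89.3], 80.3% [74.4 to 85.3] and 92.3% [90.1 to 94.1]. Neutrophils had 0, 1 and 5 Cxcl5 UMIs and keratinocytes 17, 16 and 20. The fibroblast level was 214 CPM [189 to 241], 262 [225 to 303] and 289.5 [269 to 312]. The 3 levels lay close together, and only the untreated and AN-GelMA intervals did not overlap.

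The log2 ratios of Cxcl5 in fibroblasts were 0.14 [-0.09 to 0.39] for AN-GelMA over GelMA, 0.29 [0.01 to 0.57] for GelMA over untreated and 0.44 [0.23 to 0.64] for AN-GelMA over untreated, so none passed 1.5 times. After thinning to 500 UMIs per cell, AN-GelMA over GelMA became 0.80, past 1.5 times, and GelMA over untreated -0.21. Among cells of at least 1000 UMIs, they were -0.26 and 0.85. AN-GelMA over untreated was 0.59 under both settings, just past 1.5 times. The calls for Cxcl5 in all 3 comparisons therefore depend on the depth of the cells used. By share of cells, Cxcl5 was seen in 7.61%, 4.94% and 10.5% of fibroblasts, or 4.98%, 3.86% and 7.32% after thinning, against 0%, 0.247% and 0% of muscle cells.

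Cxcl5, like Cxcl1, stood highest in the Nos2 and Saa3 cluster. The Nos2 and Saa3 cluster held 143, 68 and 362 Cxcl5 UMIs (674, 4823 and 824 CPM), and its GelMA value came from 7 of 8 cells with up to 26 UMIs in 1 cell. The Col12a1 and Tnn cluster held 100, 89 and 269 UMIs (173, 303 and 270.3 CPM). These clusters held 43.9% and 35.1% of all Cxcl5 UMIs. In the Col12a1 and Tnn cluster, GelMA over untreated was 0.81 [0.38 to 1.23] and AN-GelMA over untreated 0.64 [0.31 to 0.99] on the log2 scale, both past 1.5 times; after thinning the first was 0.33, within 1.5 times, and the second 1.02. The Pi16 cluster held 31, 22 and 72 UMIs (63.2, 58.6 and 72.5 CPM), the lowest of the 3 in each library.

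**Figure D2:**
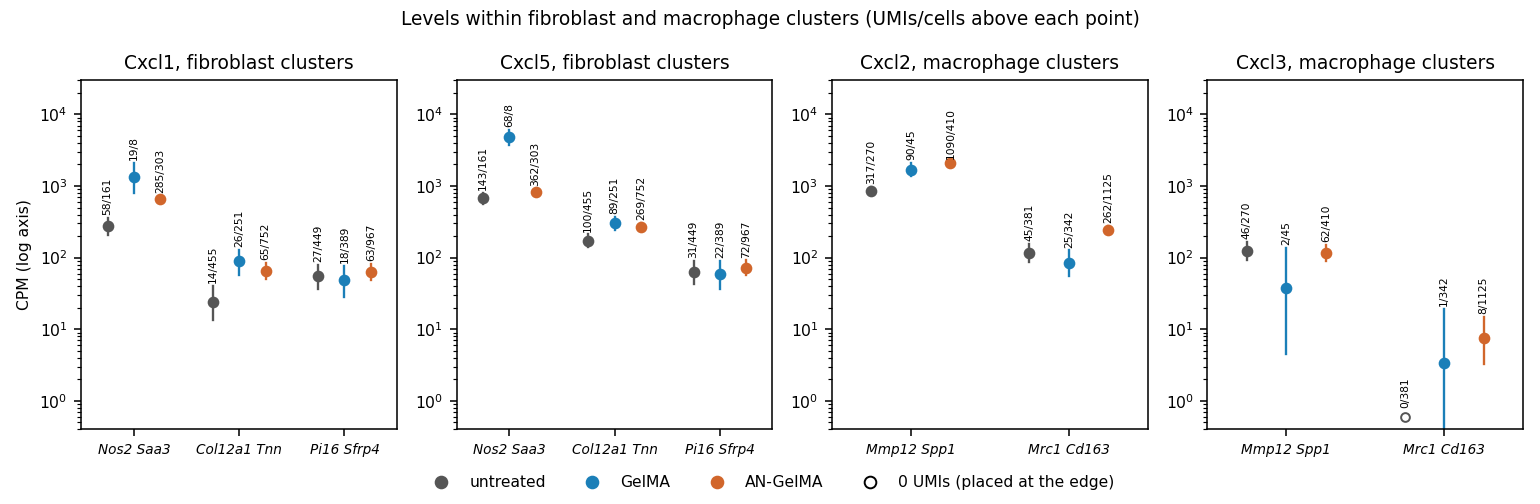
Levels in CPM (log axis) of ligands within single fibroblast and macrophage clusters, each point 1 library with its exact 95% Poisson interval and the UMIs and cells behind it. The 8 GelMA cells of the Nos2 and Saa3 cluster stand highest, at 1348 CPM of Cxcl1 and 4823 CPM of Cxcl5, on 19 and 68 UMIs.

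Fibroblasts with Cxcl1 carried Cxcl5 more often than those without it. Of 193 fibroblasts with a Cxcl1 UMI, 81 also had Cxcl5 (42.0% [34.9 to 49.3]), against 245 of 3542 without Cxcl1 (6.92%). In single libraries, the shares were 29.8%, 52.6% and 44.9% with Cxcl1 and 6.58%, 3.50% and 8.23% without it. Over all libraries the cells with Cxcl1 were somewhat deeper (median 1166 against 1003 UMIs). By library the medians were 1007 against 1047, 1574 against 858 and 1186 against 1007 UMIs, so this did not hold in the untreated library. The part of depth in the shares was not tested.

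**Figure D3:**
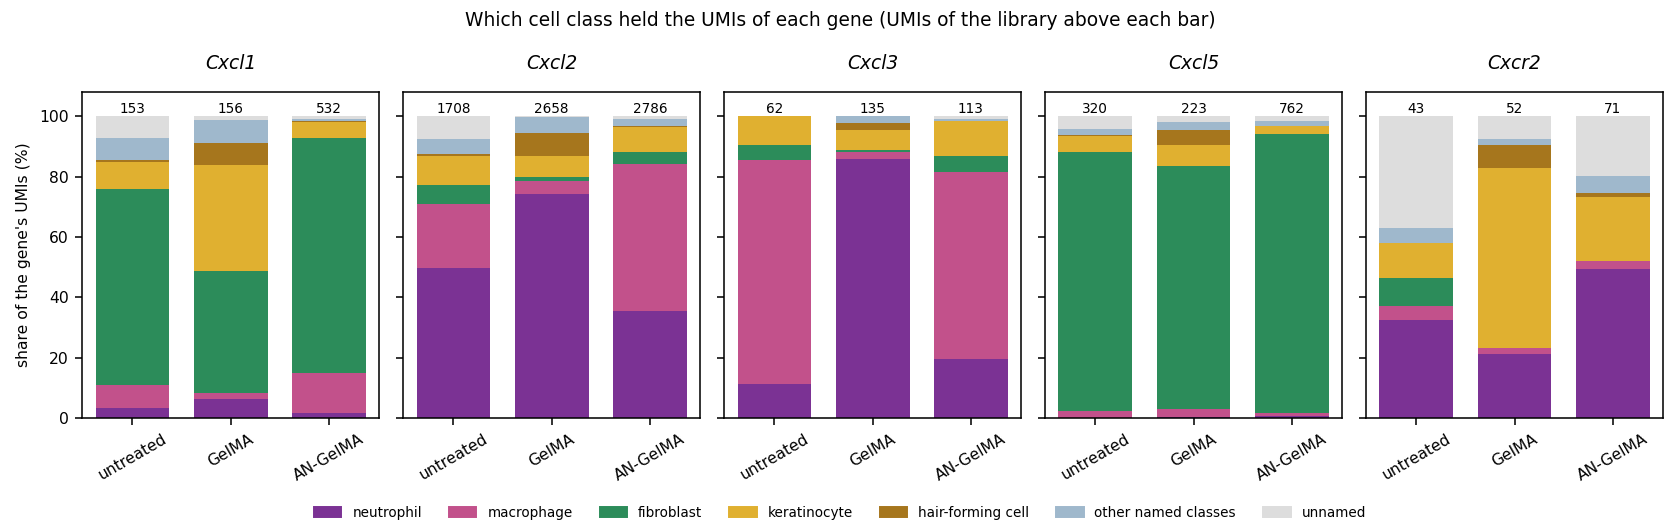
Share (%) of each gene's UMIs that lay in each cell class, 1 bar per library with the library's UMIs of that gene above it. Cxcl5 bars are mostly fibroblast (85.6%, 80.3% and 92.3%), whereas the Cxcl3 bars change from macrophage (74.2%) in the untreated to neutrophil (85.9%) in the GelMA library. With a class for each cell by its own marker score, neutrophils held more Cxcl3 than macrophages in the untreated library too.

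Cxcl2 encodes the chemokine MIP-2 and had the most UMIs of the 5 genes, 1708, 2658 and 2786. Neutrophils held 847, 1976 and 993 of them, or 49.6% [47.2 to 52.0], 74.3% [72.6 to 76.0] and 35.6% [33.9 to 37.5]. The neutrophil level was 22257 CPM [20783 to 23808] in the untreated, 16351 [15638 to 17088] in the GelMA and 10771 [10111 to 11462] in the AN-GelMA library. No 2 of these counting intervals overlapped, but they leave out the uneven spread between cells given below. AN-GelMA over GelMA was -0.60 [-0.71 to -0.49] on the log2 scale, called lower at just past 1.5 times; with cells thinned to 500 UMIs it was -0.56, within 1.5 times. No ratio is given with the untreated library, which had 35 neutrophils, under the minimum of 50 cells.

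Most neutrophils carried Cxcl2, unevenly. It was seen in 77.1%, 80.6% and 70.1% of neutrophils (79.4%, 75.3% and 64.6% after thinning), against 2.87%, 2.96% and 0.602% of muscle cells (0.575%, 0.617% and 0.602% after thinning). Median depths of neutrophils were 812, 855 and 698 UMIs. The median neutrophil held 14, 9 and 3 Cxcl2 UMIs and the highest 136, 355 and 158. The 4, 10 and 10 neutrophils with most Cxcl2 held 43.2%, 55.8% and 52.7% of its neutrophil UMIs, so a few cells carried much of the signal in each library.

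Markers of other classes differed between the neutrophil sums and are given for that reason. In neutrophils, the summed level of 14 hair-forming markers was 184, 2830 and 163 CPM (10, 1 and 9 of 14 at 0), that of 11 muscle markers 158, 794 and 152 CPM (8, 0 and 6 at 0), and that of 17 keratinocyte markers 3127, 7538 and 7365 CPM. The summed level of 12 macrophage markers was 1393, 2681 and 1486 CPM, and that of 12 fibroblast markers 2207, 736 and 1443 CPM. The part of these markers in the lower Cxcl2, or in the other neutrophil values, was not tested.

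Macrophages were the other main source of Cxcl2, and for AN-GelMA against GelMA their level differed in the opposite direction from that of neutrophils. They held 362, 115 and 1352 Cxcl2 UMIs, or 21.2%, 4.33% and 48.5% of each library's Cxcl2. Under AN-GelMA macrophages thus held more Cxcl2 UMIs than neutrophils, whereas in the other libraries neutrophils held more. This order depends on naming: with a class for each cell by its own marker score, neutrophils held 59.0%, 77.0% and 55.3% of Cxcl2, the largest share in each library. The macrophage level was 482 CPM [433 to 534], 332 [274 to 399] and 849.8 [805 to 896]. AN-GelMA was higher than GelMA by 1.36 [1.08 to 1.64] and than untreated by 0.82 [0.65 to 0.99] on the log2 scale, and GelMA over untreated was -0.54 [-0.85 to -0.23], within 1.5 times. After thinning these became 1.66, 0.48 and -1.18, and among cells of at least 1000 UMIs 0.84, 1.26 and 0.42. AN-GelMA over GelMA was past 1.5 times in each case, whereas the call against the untreated library was lost after thinning and GelMA over untreated changed sign with the depth of the cells used.

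The macrophages formed 2 clusters, and the one led by Mmp12 and Spp1 held most of their Cxcl2. It had 270, 45 and 410 cells, which was 41.5%, 11.6% and 26.7% of macrophages, with 317, 90 and 1090 Cxcl2 UMIs (859.9, 1696 and 2066 CPM). The cluster led by Mrc1 and Cd163, scavenger receptors of resident-type macrophages, had 381, 342 and 1125 cells and 45, 25 and 262 UMIs (117, 85.3 and 246 CPM). With finer clustering (Leiden resolution 2), a macrophage cluster led by Ccr2 and Ifi209 (146, 112 and 476 cells) stood apart from one led by Cd163 and Mrc1 (235, 226 and 629 cells). The Mrc1 and Cd163 cluster used here may thus hold cells other than resident-type ones, which was not tested. In the Mmp12 and Spp1 cluster AN-GelMA over untreated was 1.26 [1.08 to 1.45] on the log2 scale. In the Mrc1 and Cd163 cluster, AN-GelMA over GelMA was 1.53 [0.94 to 2.19] and AN-GelMA over untreated 1.07 [0.61 to 1.56]. After thinning these 3 ratios were 0.94, 1.67 and 0.98. No ratio with GelMA is given for the Mmp12 and Spp1 cluster, where GelMA had 45 cells, under the minimum of 50. The GelMA and AN-GelMA levels there, 1696 CPM [1364 to 2085] and 2066 CPM [1945 to 2192], lay within 1.5 times of each other.

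Other classes held Cxcl2 at low levels. Keratinocytes stood at 38.1, 19.0 and 33.3 CPM, hair-forming cells at 36.9, 33.7 and 29.0 CPM and muscle cells at 34.3, 26.8 and 4.12 CPM. The keratinocyte level was 0.171%, 0.116% and 0.309% of the neutrophil level. For Il1b, another abundant neutrophil message, that figure was 0.228%, 0.189% and 0.296%. Fibroblasts stood at 85.9, 46.8 and 44.1 CPM, higher than those classes in each library, but not higher than every class. Blood endothelial cells stood at 71.2, 105.5 and 57.5 CPM. Pericytes or smooth muscle cells stood at 53.5, 93.7 and 112 CPM on 6, 10 and 10 UMIs. T, NK or innate lymphoid cells stood at 142.8, 36.2 and 62.1 CPM on 18, 4 and 11 UMIs. In fibroblasts, GelMA over untreated was -0.87 and AN-GelMA over untreated -0.96 on the log2 scale, both called lower. Among fibroblasts of at least 1000 UMIs these ratios were 0.27 and -0.22, within 1.5 times. In the Col12a1 and Tnn cluster Cxcl2 had 58, 18 and 21 UMIs (100.4, 61.3 and 21.1 CPM), and AN-GelMA over untreated was -2.25 [-3.05 to -1.51]. When the level in muscle and hair-forming cells was taken off every class as free RNA, neutrophils held 59.9%, 91.5% and 37.6% of Cxcl2.

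Cxcl3, a chemokine close to Cxcl1 and Cxcl2 in sequence, had few UMIs, 62, 135 and 113. With cells named by cluster, its source differed between libraries: neutrophils held 7, 116 and 22 UMIs (11.3%, 85.9% and 19.5%) and macrophages 46, 3 and 70 (74.2%, 2.22% and 61.9%). With a class for each cell, the neutrophil share was 37.1% in the untreated and 51.3% in the AN-GelMA library, above the macrophage share in both. The order of these classes in the untreated and AN-GelMA libraries thus depends on naming. In neutrophils the level was 184 CPM [74.0 to 379], 959.9 [793 to 1151] and 239 [150 to 361]. The GelMA library was the high one and the other 2 overlapped. AN-GelMA over GelMA was -2.01 [-2.74 to -1.34] on the log2 scale. In macrophages the level was 61.2, 8.66 and 44.0 CPM, with GelMA the low library on 3 UMIs: AN-GelMA over GelMA was 2.34 [0.74 to 4.66], GelMA over untreated -2.82 [-5.15 to -1.18] and AN-GelMA over untreated -0.48 [-1.03 to 0.09].

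Cxcl3 was seen in 14.3%, 24.7% and 15.5% of neutrophils (11.8%, 18.3% and 9.38% after thinning), and 1 GelMA neutrophil alone held 26 of its 116 UMIs. In macrophages, the Mmp12 and Spp1 cluster held 46, 2 and 62 of the Cxcl3 UMIs and the Mrc1 and Cd163 cluster 0, 1 and 8. The first cluster had 45 cells under GelMA. Its level there, 37.7 CPM [4.56 to 136] on 2 UMIs, had an interval that reached the 125 and 117.5 CPM of the other libraries. The part of the cluster mix in the low macrophage count under GelMA was not tested.

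Cxcl3 was set beside Cxcl2 in single neutrophils and macrophages, and Cxcl1 beside Cxcl2 in macrophages only. Among neutrophils with Cxcl2, 5 of 27, 23 of 75 and 14 of 68 had Cxcl3, against 0 of 8, 0 of 18 and 1 of 29 without Cxcl2. Among macrophages with Cxcl2, 15 of 72, 2 of 24 and 32 of 224 had Cxcl3, against 8 of 579, 1 of 363 and 7 of 1311 without it. Cxcl3 was thus seen more often beside Cxcl2 in each library, on few cells in some. For Cxcl1 in macrophages the numbers were 5 of 72, 0 of 24 and 20 of 224 with Cxcl2 and 0 of 579, 2 of 363 and 7 of 1311 without, so GelMA did not have the direction of the others. These cells share libraries and depth, so the shares are descriptions.

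**Figure D4:**
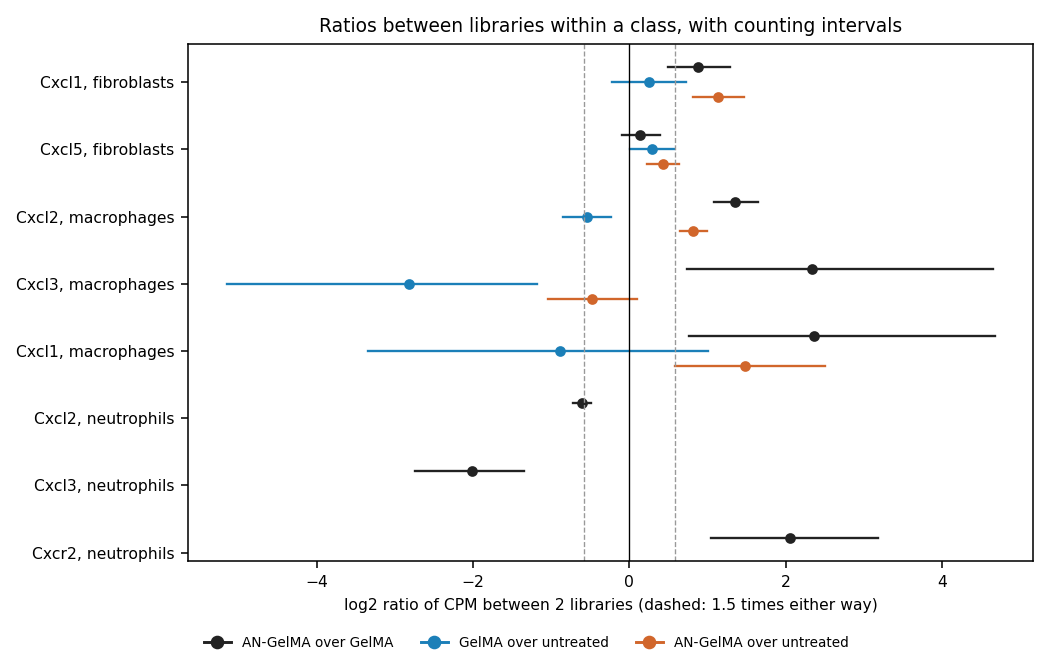
Log2 ratios of CPM between pairs of libraries for the members within a class, with exact 95% counting intervals; dashed lines mark 1.5 times either way. Cxcl2 (-0.60) and Cxcl3 (-2.01) lie left of 0 in neutrophils for AN-GelMA over GelMA, while Cxcr2 there (2.06) and Cxcl2 in macrophages (1.36) lie right of it.

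Cxcr2, the receptor that answers to all 4 ligands, was the member of fewest UMIs, 43, 52 and 71. Neutrophils held 14, 11 and 35 of them, or 32.6% [19.1 to 48.5], 21.2% [11.1 to 34.7] and 49.3% [37.2 to 61.4]. Among cells of at least 1000 UMIs, the untreated and AN-GelMA shares were 4.17% and 30.8%. The neutrophil level was 368 CPM [201 to 617], 91.0 [45.4 to 163] and 379.6 [264 to 528]. The GelMA counting interval lay below those of the others, which were close to each other. The untreated level rests on 14 UMIs in 6 of 35 cells. AN-GelMA over GelMA was 2.06 [1.05 to 3.19] on the log2 scale, called higher on 35 against 11 UMIs. When each cell was given a class by its own marker score instead of its cluster's, that ratio became 0.68, still called higher. Cxcr2 was seen in 17.1%, 9.68% and 22.7% of neutrophils, or 11.8%, 5.38% and 17.7% after thinning, against 0%, 0.123% and 0.602% of muscle cells.

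Some neutrophils held both receptor and ligand. Of 37 neutrophils with Cxcr2, 23 had Cxcl2 (62.2% [44.8 to 77.5]), and of 188 without Cxcr2, 147 had it (78.2%). By library, 3 of 6, 8 of 9 and 12 of 22 neutrophils with Cxcr2 had Cxcl2, against 24 of 29, 67 of 84 and 56 of 75 without Cxcr2. Under GelMA the share was thus the higher one with Cxcr2, in the other libraries the lower one.

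Over all libraries, 34 Cxcr2 UMIs lay in unnamed clusters, 16, 4 and 14 by library. Of these, 5, 7, 11 and 8 UMIs lay in 4 small clusters of 135, 74, 66 and 14 cells whose leading genes were vomeronasal receptors, Duxf3 and Spin2g, and which were left unnamed because they came from a cluster that met no class and had no marker of one among their leading genes. For the clusters of 74 and 66 cells, the closest list was that of neutrophils, with 10 and 9 of its 12 markers at 50 CPM or more and at least 4 times their 25th percentile over clusters. For the 74 cells the neutrophil score was 3.343, ahead of lymphatic endothelial cells at 2.326. For the 66 cells it was 2.634, against 2.586 for adipocytes. The clusters of 135 and 14 cells scored highest for B or plasma cells (2.617) and lymphatic endothelial cells (2.736). The next lists there were Schwann cells (2.471) and melanocytes (2.604). Naming also asked for a lead of 0.5 over the next list, which only the cluster of 74 cells had. The clusters of 74 and 66 cells also held 73 and 34 Cxcl2 UMIs. They are not counted as neutrophils here. The untreated library held 48 and 36 of those cells, the GelMA library 4 and 2, and the AN-GelMA library 22 and 28.

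Keratinocytes held 5, 31 and 15 Cxcr2 UMIs, which under GelMA was 59.6% of the library's total. They also held 47.9% of the UMIs of all genes in the GelMA library. Their level was 1.17, 3.24 and 2.11 CPM, and 47 of 10873 keratinocytes had a UMI. Those 47 cells were deep, with a median of 3707 UMIs against 1483 without. By cluster, the one led by Mmp13 and Krt6b, genes of injured epidermis, held 2, 10 and 5 UMIs, and one led by Gadl1 and Krt1, a keratin of the upper layers, 2, 15 and 5. Macrophages had 2, 1 and 2 Cxcr2 UMIs and fibroblasts 4, 0 and 0.

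Set against all genes, calls past 1.5 times were common in these sums, which the member counts are to be read beside. In neutrophils, 3 members had at least 20 UMIs over both gel libraries and 3 passed 1.5 times, Cxcr2 higher and Cxcl2 and Cxcl3 lower under AN-GelMA; after thinning Cxcl2, at -0.56, did not pass. Of 2836 genes with as many UMIs, 46.7% passed, 23.9% higher and 22.8% lower, so a call alone sets no neutrophil gene apart. In fibroblasts, 1 of 3 members passed for AN-GelMA over GelMA (Cxcl1, higher; all genes 28.0%, of which 10.2% higher and 17.8% lower). For GelMA over untreated it was 1 of 3 (Cxcl2, lower; all genes 26.1%), and for AN-GelMA over untreated 2 of 3 (Cxcl1 higher, Cxcl2 lower; all genes 11.3%). Both Cxcl2 calls were lost among cells of at least 1000 UMIs.

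In macrophages, 3 of 3 members with enough UMIs passed for AN-GelMA over GelMA, all higher (Cxcl1, Cxcl2, Cxcl3; all genes 29.7% either way). For GelMA over untreated it was 1 of 2 (Cxcl3, lower; all genes 28.7% either way), and for AN-GelMA over untreated 2 of 3 (Cxcl1 and Cxcl2, higher; all genes 16.3% either way), of which neither passed after thinning. The Cxcl1 and Cxcl3 calls for AN-GelMA over GelMA rest on 3 GelMA UMIs each, against 71 and 70 under AN-GelMA. Within the Mrc1 and Cd163 cluster, Cxcl1 stood at 10.2 CPM under GelMA and 10.3 under AN-GelMA, a log2 ratio of 0.02 [-1.90 to 2.50]. In macrophages the summed level of 12 neutrophil markers was 645, 540.1 and 886 CPM, which moved in the order of the Cxcl2 level; its part in that level was not tested. The summed level of 14 hair-forming markers there was 128, 1017 and 25.1 CPM (3, 0 and 6 of 14 at 0) and that of 17 keratinocyte markers 644, 1311 and 728 CPM; their part in the macrophage ratios was not tested.

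The other genes of the pathway came from a list of 38 genes, of which 23 had at least 20 UMIs in the neutrophils of the gel libraries. For AN-GelMA over GelMA, 10 were higher, 3 lower and 10 within 1.5 times, with a median log2 ratio of 0.39 against 0.03 over all genes. Of all genes with enough UMIs, 23.9% were higher and 22.8% lower. Of the inducing cytokines, Il1b, which encodes interleukin-1 beta, had 416, 977 and 995 UMIs and a ratio of 0.42 [0.29 to 0.55], within 1.5 times. Tnf, tumour necrosis factor, had 24, 49 and 21 UMIs and was lower at -0.83 [-1.64 to -0.07]. Il1a was called higher at 0.90 on 27 against 19 UMIs, with an interval that reached 0. The cytokines thus differed among themselves in direction.

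Among NF-kB factors and feedback genes, 3 of 8 were higher in neutrophils under AN-GelMA than GelMA and 0 lower (all genes 23.9% and 22.8%). Nfkbia, which encodes the inhibitor of NF-kB, had 213, 321 and 216 UMIs and a ratio of -0.18, within 1.5 times. Zfp36, whose product binds and shortens cytokine messages, had 98, 135 and 210 UMIs and was higher by 1.03 [0.71 to 1.35], and Birc3 and Zc3h12a were higher by 1.61 and 0.72. Nfkbiz had 39, 92 and 84 UMIs and a ratio of 0.26. Of the upstream receptors and adaptors, 2 of 4 were higher (all genes 23.9%), Il17ra by 1.68 [0.86 to 2.56] and Tnfrsf1a by 0.59 [0.00 to 1.18]. Tlr2 and Myd88 were within 1.5 times.

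Csf3r, the receptor for granulocyte colony-stimulating factor, stood at 2234, 604 and 3514 CPM in neutrophils, the same order of libraries as Cxcr2, and AN-GelMA over GelMA was 2.54 [2.17 to 2.93]. It is also 1 of the markers that named the class. The adhesion genes with enough UMIs, Itgam, Itgb2 and Selplg, were all higher (all genes 23.9%), by 0.73 [0.25 to 1.22], 0.96 [0.29 to 1.64] and 1.48. Of other chemoattractant receptors, C5ar1 and Cxcr4 were called lower (all genes 22.8%), at -0.67 [-1.43 to 0.06] and -0.96 [-2.11 to 0.09], and Ccr1 was within 1.5 times. The point values of C5ar1 and Cxcr4 thus had the opposite sign to that of Cxcr2, but their intervals held 0.

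In fibroblasts, 22 of the 38 genes had enough UMIs for AN-GelMA over GelMA, and 7 were higher, 1 lower and 14 within 1.5 times (median 0.32 against -0.10 over all genes). Of all genes with enough UMIs there, 10.2% were higher and 17.8% lower. Il1r1, the interleukin-1 receptor, had 593, 294 and 1174 UMIs and a ratio of 0.17. Il17ra was higher by 1.07 [0.73 to 1.43], Nfkbia by 0.61 [0.38 to 0.86] and Nfkbiz, a cofactor for NF-kB at such genes, by 0.97 [0.66 to 1.30]. Csf3, the growth factor for neutrophils, had 18, 1 and 40 UMIs. Icam1, a ligand of neutrophil integrins, was the gene called lower, at -1.91 [-2.96 to -0.87]. Against the untreated library 1 of 23 was higher and 1 lower under AN-GelMA (all genes 11.3% either way). Under GelMA 2 of 19 were higher and 4 lower (all genes 26.1% either way).

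The genes most like each member were sought among 11873 genes by Pearson's r of log2(CPM + 10) over 34 sums of class and library, which share libraries and classes, so r is a description. Cxcl1 was most like Tnfaip6 (0.83), which encodes a hyaluronan-binding protein of inflamed matrix, then Pcsk5 (0.81) and Cxcl5 (0.79). Cxcl5 was most like Osr2 (0.91), AW551984 (0.88) and Gfpt2 (0.87). Cxcl2 was most like Ccl3 (0.92), another chemokine, Cd14 (0.92) and Spp1 (0.91). Cxcl3 was most like Cd14 (0.97), Clec4e (0.94) and Ccl3 (0.93), and its r with Cxcl2 was 0.91. Cxcr2 was most like Cstdc4 (0.90), S100a9 (0.87) and Hcar2 (0.86). The r of Cxcl2 was 0.58 with Cxcl1 and 0.21 with Cxcl5. Cd14, Clec4e and S100a9 are among the markers that named the classes.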

How the data were processed

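The deposited matrices hold raw UMI counts per gene and cell. Per the file headers, Cell Ranger 10.0.0 wrote them; builds GRCm39 and mm39 are named in the submitters' processing notes. A cell stayed in with 400 UMIs, 250 genes or more and no more than 10% mitochondrial UMIs. Scrublet called 0 doublets, so the 5% of cells with the highest scores in each library were left out. The rest were clustered (scanpy 1.11.5, igraph 0.11.9; 2000 variable genes, 30 components, 15 neighbours, Leiden resolution 1) without the 5 members and named from the marker lists; details of naming were set after cluster tables were seen. Counts were summed per class and library (numpy 2.4.6, pandas 2.3.3), with exact intervals from scipy 1.17.1, and a count of 0 was given a limit of 3 UMIs. The ratio code was tested on simulated data. Members, gene lists and rules were chosen with earlier results of these data known. Named besides the members are pathway genes with most UMIs in each list and, for each member, the 3 genes of highest r. Alternatives were other doublet handling, depth, clustering genes, resolution, naming per cell, free RNA and scaling; leaving out the cell with most UMIs of the member was chosen after seeing the data. The reference was of another build (GRCm38.p6), so coordinates are given for RefSeq promoter windows only.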

Additional observations from a re-analysis of the deposited data

How the results depend on the processing

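No paired analysis was possible because a single library stood for every group. Clustering with the members kept and Leiden resolution 2 left all 27 shares and 21 ratios recomputed within their counting intervals, as did a total without the 50 most abundant genes for the ratios. Ratios within clusters were recomputed only with thinned cells. The cause of each change below was not tested. Shares are of a library's UMIs in the class named in the report, and ratios are log2. With doublets kept, Cxcl2 became 71.4% (GelMA) and 33.7% (AN-GelMA) and Cxcl5 88.0% (AN-GelMA). With at least 1000 UMIs per cell, which left too few neutrophils for a ratio, Cxcl1 became 52.0% (untreated), Cxcl2 69.2% (GelMA) and 31.3% (AN-GelMA), and Cxcr2 4.17% (untreated) and 30.8% (AN-GelMA). Ratios there were 1.35 (Cxcl1, GelMA over untreated), 2.06 (Cxcl1, AN-GelMA over untreated), -0.26 (Cxcl5, AN-GelMA over GelMA) and 0.85 (Cxcl5, GelMA over untreated). With a class per cell, Cxcl1 became 45.1% (untreated), Cxcl2 59.0%, 77.0% and 55.3%, Cxcl3 37.1% (untreated) and 51.3% (AN-GelMA), and Cxcl5 74.4%, 74.0% and 86.6%. The ratios were then 1.63 (Cxcl1, AN-GelMA over untreated), and for AN-GelMA over GelMA -0.99 (Cxcl2) and 0.68 (Cxcr2). With free RNA subtracted, Cxcl1 became 81.7% (AN-GelMA), Cxcl2 59.9%, 91.5% and 37.6%, Cxcl3 92.6% (GelMA), Cxcl5 94.1% (GelMA) and Cxcr2 71.8% (AN-GelMA). With 500 UMIs per cell, ratios were 1.31, -0.52 and 0.78 for Cxcl1 (AN-GelMA over GelMA, GelMA over untreated, AN-GelMA over untreated) and 0.80 and -0.21 for Cxcl5 (the first 2 of these). Without the cell of most UMIs, an alternative chosen after seeing the data, Cxcl2 became 45.2%, 70.4% and 31.8%. The call for Cxcl2 in neutrophils (-0.56) and those for Cxcl5, AN-GelMA over untreated (0.59 with thinned cells and with at least 1000 UMIs), crossed 1.5 times within their intervals. In macrophages, with doublets kept, Cxcl1 became 15.1% (untreated) and its ratio AN-GelMA over untreated 0.54. With at least 1000 UMIs, Cxcl1 became 0% (GelMA) and Cxcl2 18.2% (untreated), with Cxcl2 ratios of 0.84, 0.42 and 1.26 (AN-GelMA over GelMA, GelMA over untreated, AN-GelMA over untreated). With a class per cell, Cxcl1 became 2.61% (untreated) and 4.51% (AN-GelMA), Cxcl2 8.49%, 2.11% and 22.8%, and Cxcl3 24.2% (untreated) and 21.2% (AN-GelMA); Cxcl1, GelMA over untreated, turned from -0.88 to 0.22 and Cxcl2, AN-GelMA over GelMA, became 1.67. With free RNA subtracted, Cxcl2 became 23.8% (untreated) and 50.6% (AN-GelMA). With 500 UMIs per cell, Cxcl1, AN-GelMA over untreated, became 0.23 and Cxcl2 1.66, -1.18 and 0.48. Without the top cell, Cxcl1 became 10.5% (AN-GelMA), Cxcl2 3.34% (GelMA) and its ratio AN-GelMA over GelMA 1.68. For Cxcl2 in fibroblasts, shares became 3.76% (untreated, at least 1000 UMIs), 4.98% (untreated, class per cell) and 4.56%, 0.457% and 2.99% (free RNA subtracted). Its ratios became 0.27 (turned from -0.87) and -0.22 against the untreated library with at least 1000 UMIs, 1.17 and -1.80 (AN-GelMA over GelMA, GelMA over untreated) with free RNA subtracted, and 0.75 and -1.95 for these with 500 UMIs. Depth limits Cxcl3 and Cxcr2 most, with at most 135 and 71 UMIs per library.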

Other observations

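Endothelial cells and other ligands of the axis add values of their own. Ackr1, a decoy receptor that binds these ligands without signalling, had 49, 52 and 24 UMIs (113, 131 and 62.7 CPM) in blood endothelial cells of the untreated, GelMA and AN-GelMA libraries, and 22.7, 22.0 and 30.9 CPM in fibroblasts. Sele and Selp, the endothelial selectins that slow neutrophils, had 49, 76 and 62 and 116, 99 and 116 UMIs in those endothelial cells. Ppbp, another ligand of CXCR2, had 19, 1 and 15 UMIs in macrophages and 0 in neutrophils. Cxcr1 had 0, 2 and 1 UMIs in neutrophils. Il1a, an inducer of the ligands, lay mainly in keratinocytes, with 312, 680 and 660 UMIs. In the GelMA library, 31 Cxcl2 UMIs lay in 4 melanocytes, with 19 in 1 of them.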
